A study of Mus musculus with 24 samples.

Results

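The 29 genes described here are expressed in megakaryocytes and the platelets they shed, and were taken as a list of named platelet genes, put together with earlier results of these data known. Of them 28 had a probe and passed the detection filter, among 23775 genes tested of 27205 named on the array; Tubb1, the platelet β-tubulin, had no probe. They comprised 10 genes of granule cargo or granule membrane, 9 adhesion receptors, 5 agonist receptors and signalling proteins, 3 cytoskeletal or membrane-shape genes and 2 eicosanoid enzymes.

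Bone marrow RNA of 6-week-old female mice labelled C57BL/6j was compared across 10 groups and 24 arrays, to ask how polycyclic aromatic hydrocarbons and loss of the Cyp1 enzymes that metabolise them change marrow expression. In wild-type (WT) mice the groups were benzo(a)pyrene (BP) after 6 h with 2 arrays, 7,12-dimethylbenz(a)anthracene (DMBA) after 12 h with 3 arrays, TCDD (the dioxin 2,3,7,8-tetrachlorodibenzo-p-dioxin) after 12 h with 3 arrays, and olive oil with 3 arrays. Cyp1b1-null mice had DMBA after 12 h and oil with 2 arrays each. Cyp1a1-null mice had BP after 12 h and oil with 3 arrays each, and Cyp1b1/Cyp1a1-null mice had BP after 12 h with 2 arrays and oil with 1 array. The agents were injected intraperitoneally, with 50 mg/kg as the only dose in the labels. Every array carried its sample in Cy3 and a pool of oil-treated WT marrow in Cy5, with no dye swap, so a log ratio below is log2 of sample over that pool and a dye bias of a probe cannot be told apart from its level. Each array is described as 9 pooled samples, and nothing states that replicates came from separate animals, so p-values measure only the spread between these samples.

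Megakaryocytes mature in the marrow, load α-granules with chemokines and adhesive proteins, and release platelets into sinusoids. On platelets the glycoprotein Ib-IX-V complex binds von Willebrand factor, integrin αIIbβ3 binds fibrinogen, and collagen and podoplanin receptors start activation, which cyclooxygenase and lipoxygenase products amplify. GATA factors and ETS factors such as Fli1 are well-known regulators of these genes. In whole marrow, fewer cells of a type and less RNA per cell cannot be told apart.

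Promoter sequences were available for 23 of the 29 genes in RefSeq (GRCm38.p6), as 24 promoters of 300 bases each, since F13a1 had 2. The Ppbp window covered 250 bases before to 50 bases after its gene start. Some other windows lie differently around the listed gene. The Myl9 gene is listed from chr2:156775408, and the Ptgs1 window begins at chr2:36230176, inside a gene listed from 36216742. Motifs were searched on both strands, GATAA for GATA factors and AGGAA for ETS factors, which can share 1 base where they adjoin. GATAA stood in 9 of the 24 promoters (37.5%), against 25.4% of all 32851 promoters of that length. AGGAA stood in 23 of 24 (95.8%), against 66.7% of all promoters, and both together in 37.5%, against 18%. A match describes letters only and shows no bound site. The 5 promoters printed belong to genes that carried the clearest differences below and to Pf4, the neighbour of Ppbp; capitals mark the matches on either strand. They lie on the plus strand at chr5:90768268-90768567 (Ppbp), chr5:90772185-90772484 (Pf4), chr17:48359666-48359965 (Treml1), chr6:60944067-60944366 (Mmrn1) and chr2:156775214-156775513 (Myl9).
Ppbp: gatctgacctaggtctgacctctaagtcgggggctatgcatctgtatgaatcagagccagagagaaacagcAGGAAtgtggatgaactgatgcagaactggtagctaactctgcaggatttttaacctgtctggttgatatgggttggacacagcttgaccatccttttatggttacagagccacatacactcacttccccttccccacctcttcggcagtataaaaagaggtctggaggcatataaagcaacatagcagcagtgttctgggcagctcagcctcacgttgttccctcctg
Pf4: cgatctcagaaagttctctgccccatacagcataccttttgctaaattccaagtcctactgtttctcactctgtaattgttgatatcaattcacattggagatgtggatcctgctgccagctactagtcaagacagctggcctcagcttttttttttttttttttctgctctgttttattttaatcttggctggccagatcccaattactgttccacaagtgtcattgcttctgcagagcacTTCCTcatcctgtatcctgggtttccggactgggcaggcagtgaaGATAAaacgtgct
Treml1: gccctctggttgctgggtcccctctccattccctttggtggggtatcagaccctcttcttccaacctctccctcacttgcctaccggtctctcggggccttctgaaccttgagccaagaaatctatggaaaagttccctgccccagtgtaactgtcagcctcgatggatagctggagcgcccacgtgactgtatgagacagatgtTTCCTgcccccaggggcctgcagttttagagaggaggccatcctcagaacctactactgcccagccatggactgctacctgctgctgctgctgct
Mmrn1: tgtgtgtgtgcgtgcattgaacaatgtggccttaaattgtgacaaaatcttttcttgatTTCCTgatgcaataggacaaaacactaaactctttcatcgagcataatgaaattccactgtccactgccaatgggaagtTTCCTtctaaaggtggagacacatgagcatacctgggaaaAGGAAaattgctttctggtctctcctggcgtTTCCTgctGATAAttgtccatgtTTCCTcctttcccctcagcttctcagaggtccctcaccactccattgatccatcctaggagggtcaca
Myl9: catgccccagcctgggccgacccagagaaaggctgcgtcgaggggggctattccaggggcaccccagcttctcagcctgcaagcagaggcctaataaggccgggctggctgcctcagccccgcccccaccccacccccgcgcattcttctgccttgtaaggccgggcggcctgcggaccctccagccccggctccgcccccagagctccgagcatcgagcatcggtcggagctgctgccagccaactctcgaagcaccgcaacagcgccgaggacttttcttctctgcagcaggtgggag
Mmrn1 held 5 AGGAA matches and 1 GATAA match, Pf4 held 1 of each, and Ppbp and Treml1 held 1 AGGAA match and no GATAA match. Myl9 was the one promoter of the 24 without AGGAA, and it held no GATAA either. Ppbp and Pf4 are adjacent genes on chromosome 5 with 2371 bases between them.

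Before the results, WT oil replicate 1 stood apart, and WT oil replicate 2 did so in the pool channel. WT oil replicate 1 had an SD of 1.27 over the log ratios of all genes, against 0.20 to 0.67 on the other 23 arrays, and across genes it correlated at 0.075 and -0.013 with WT oil replicates 2 and 3, which correlated at 0.137 with each other. The median Cy3 percentile of 8 liver genes was 95.1 on it, against 6.70 to 33.3 elsewhere, and several platelet genes lay far out (Thbs1 5.68, F13a1 5.53, Rgs18 3.65, F5 -3.18, Cavin2 -2.60). The median rank correlation of its Cy5 signal with the other arrays was 0.786, and that of WT oil replicate 2 was 0.862, against 0.920 to 0.969 on the other 22 arrays. Each WT oil comparison is therefore given with all 24 arrays and without WT oil replicate 1. Leaving out replicate 2 instead, the genes called among the 28 numbered 3 after BP, 1 after DMBA, 8 after TCDD, 5 in Cyp1b1-null oil, 11 in Cyp1a1-null oil and 1 in Cyp1b1/Cyp1a1-null oil marrow. WT TCDD replicates 1 and 2 and both Cyp1b1-null DMBA arrays had a high Cy3 floor, with 5th percentiles of log2 Cy3 signal of 7.84, 9.13, 8.17 and 8.73, against 5.82 to 6.66 on the others. All 14 neutrophil, 14 erythroid and 10 B-lineage marker genes were well above background in Cy3 on every array.

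The genotype check gave a mixed answer. Cyp1a1, the hydrocarbon-inducible monooxygenase, had log ratios of 1.71 and 1.94 in WT BP marrow, 1.93, 1.76 and 1.91 in WT DMBA marrow and 0.18, 0.15 and 1.55 in WT TCDD marrow, against 0.03, -0.11 and 0.48 in WT oil marrow. On WT TCDD replicates 1 and 2 its log2 Cy3 signal was 8.00 and 9.27, near the 5th percentiles of 7.84 and 9.13. Its low ratios on these arrays cannot be told apart from the raised Cy3 floor. On the 9 arrays labelled Cyp1a1-null or Cyp1b1/Cyp1a1-null it lay between -0.43 and 0.11 and was never well above background. The Cyp1b1 probe, by contrast, read 0.51 and 1.08 in Cyp1b1-null oil, 1.57 in Cyp1b1/Cyp1a1-null oil and 1.57 and 1.11 in Cyp1b1/Cyp1a1-null BP marrow, against -0.06, -0.04 and 0.57 in WT oil marrow. In Cyp1b1-null DMBA marrow it read 0.14 and 0.061, against 0.37, 0.46 and 0.48 in WT DMBA marrow. Its log ratio was thus lower in the null marrow after DMBA and not after oil. On the Cyp1b1-null DMBA arrays its log2 Cy3 signal was 8.42 and 8.87, near the 5th percentiles of 8.17 and 8.73. A lower level there cannot be told apart from the raised Cy3 floor. No source used here says whether the Cyp1b1 probe lies in the deleted part, so it does not check that label.

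**Figure D1:**
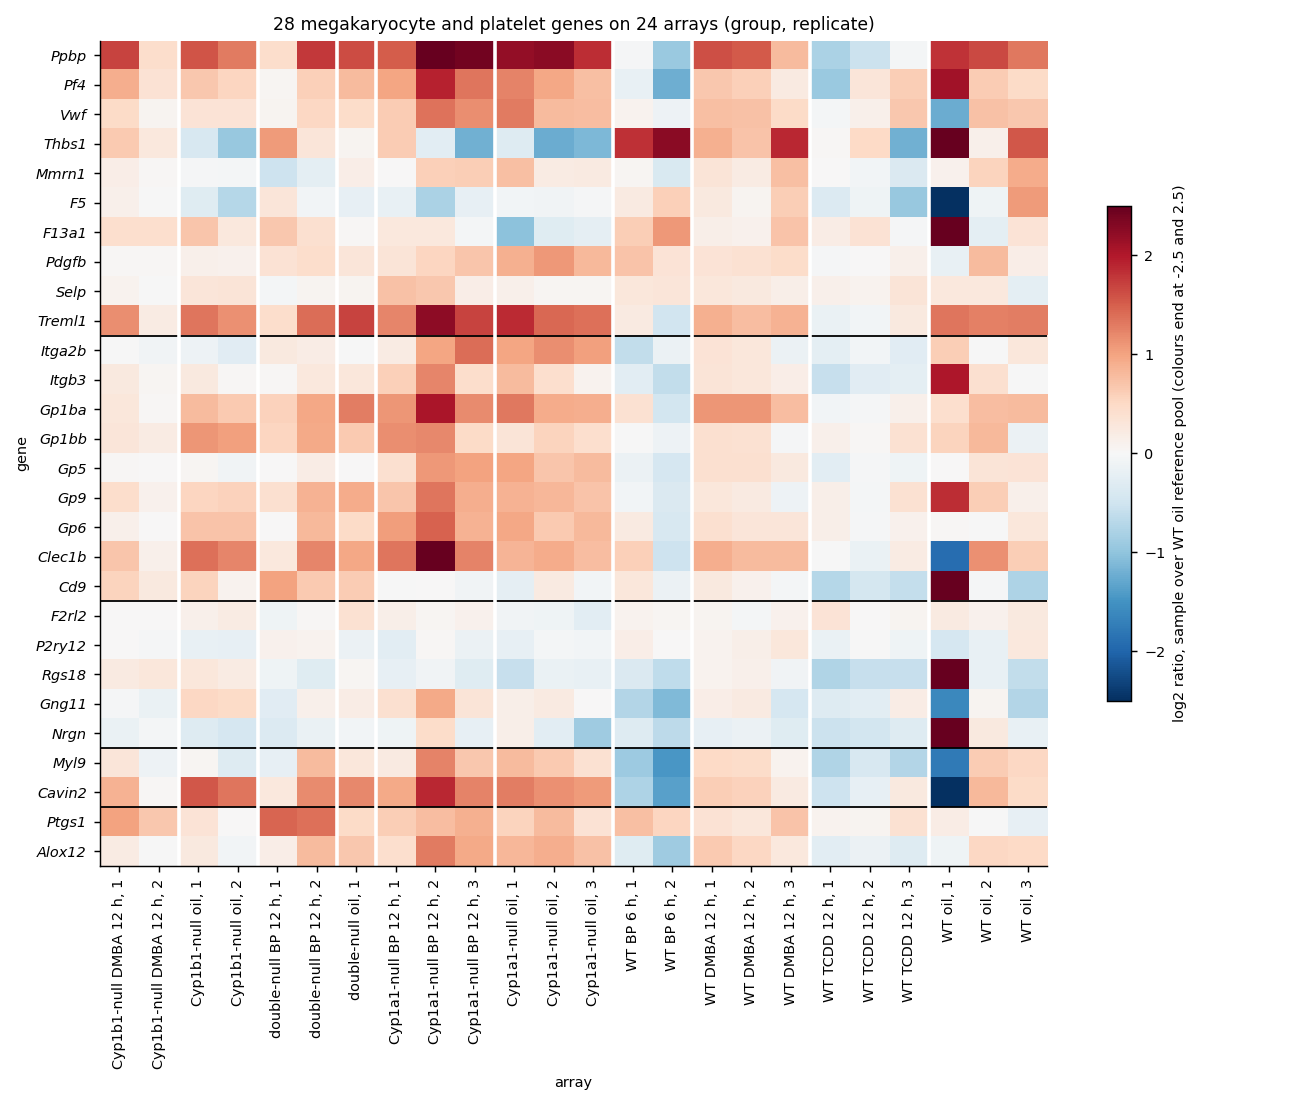
Log2 ratio of sample (Cy3) over the WT oil pool (Cy5) for the 28 measured megakaryocyte and platelet genes (rows, by role) on the 24 arrays (columns, by group). Leaving out WT oil replicate 1, WT BP replicate 2 was the lowest array and Cyp1a1-null BP replicate 2 the highest for most adhesion receptors and for Ppbp, Pf4 and Treml1, and WT oil replicate 1 had extremes in both directions.

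Leaving out WT oil replicate 1, Ppbp varied most over the remaining 23 arrays (SD 1.03), followed by Thbs1 (1.03), Cavin2 (0.79), Treml1 (0.70) and Pf4 (0.67). F2rl2 and P2ry12, at or near background on several arrays, varied least (0.15 and 0.16). The lowest value of Ppbp, Pf4, Cavin2, Treml1, Myl9, Clec1b and Gp1ba was on WT BP replicate 2, and their highest was on Cyp1a1-null BP replicate 2. On the latter array 14 of the 28 genes exceeded a log ratio of 1, against 5.62% of all genes. Thbs1 and F13a1 ran the other way, highest on WT BP replicate 2 and lowest on a Cyp1a1-null oil array, while F5, Cd9 and Ptgs1 had their extremes on other arrays. The median over the 28 genes was 0.07 and -0.39 on the WT BP arrays, 0.36, 0.30 and 0.25 on the DMBA arrays and -0.16, -0.05 and 0.02 on the TCDD arrays, against 0.25, 0.36 and 0.31 on the WT oil arrays, while the median of all genes lay between -0.06 and 0.04 on each array.

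In WT marrow, Ppbp and Treml1 fell 6 h after BP, and the adhesion receptors leaned the same way without passing the test. Ppbp encodes the platelet basic protein, the precursor of a neutrophil-attracting chemokine held in α-granules. Its log ratios were -0.04 and -0.93 in WT BP marrow, against 1.80, 1.65 and 1.31 in WT oil marrow. The groups did not overlap, and the change was -2.07 ± 0.44 (SE) on the log2 scale (limma adjusted p = 0.0397). Treml1, an α-granule membrane receptor that reaches the surface on activation, read 0.23 and -0.47 in WT BP marrow, against 1.34, 1.27 and 1.29 in WT oil marrow. Its change was -1.42 ± 0.32 (adjusted p = 0.0497), again without overlap. Leaving out WT oil replicate 1, the changes were -1.96 ± 0.48 (adjusted p = 0.0301) for Ppbp and -1.40 ± 0.35 (adjusted p = 0.0329) for Treml1.

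These 2 of 28 genes stood against a background of 0.837% of all genes called, 0.618% of them called lower. Without WT oil replicate 1 the call extended to 7 of 28, 6 lower and 1 higher, against 3.9% of all genes (2.39% lower and 1.51% higher). With all arrays the BP calls were lost, with 0 of 28 called, under 7 alternative settings: no background subtraction, the scanner's processed signals, Cy3 alone, slide as a random block, the replicate block, a trended robust prior and a fit of only the groups compared. They were also lost when any 1 of 11 arrays was left out, namely either WT BP array, DMBA replicate 1 or 2, TCDD replicate 1 or 2, either Cyp1b1-null oil array or any Cyp1a1-null oil array. Over the 40 alternatives the change ran from -2.68 to -1.52 for Ppbp and from -2.17 to -1.05 for Treml1. The median change over the 28 genes was -0.63 with all arrays and -0.55 without that array. With all arrays 12 genes lay lower on every WT BP array than on any WT oil array, against 11.7% of all genes, and 2 lay higher (10.6%). The counts without that array were 17 lower (21%) and 4 higher (23.1%).

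**Figure D2:**
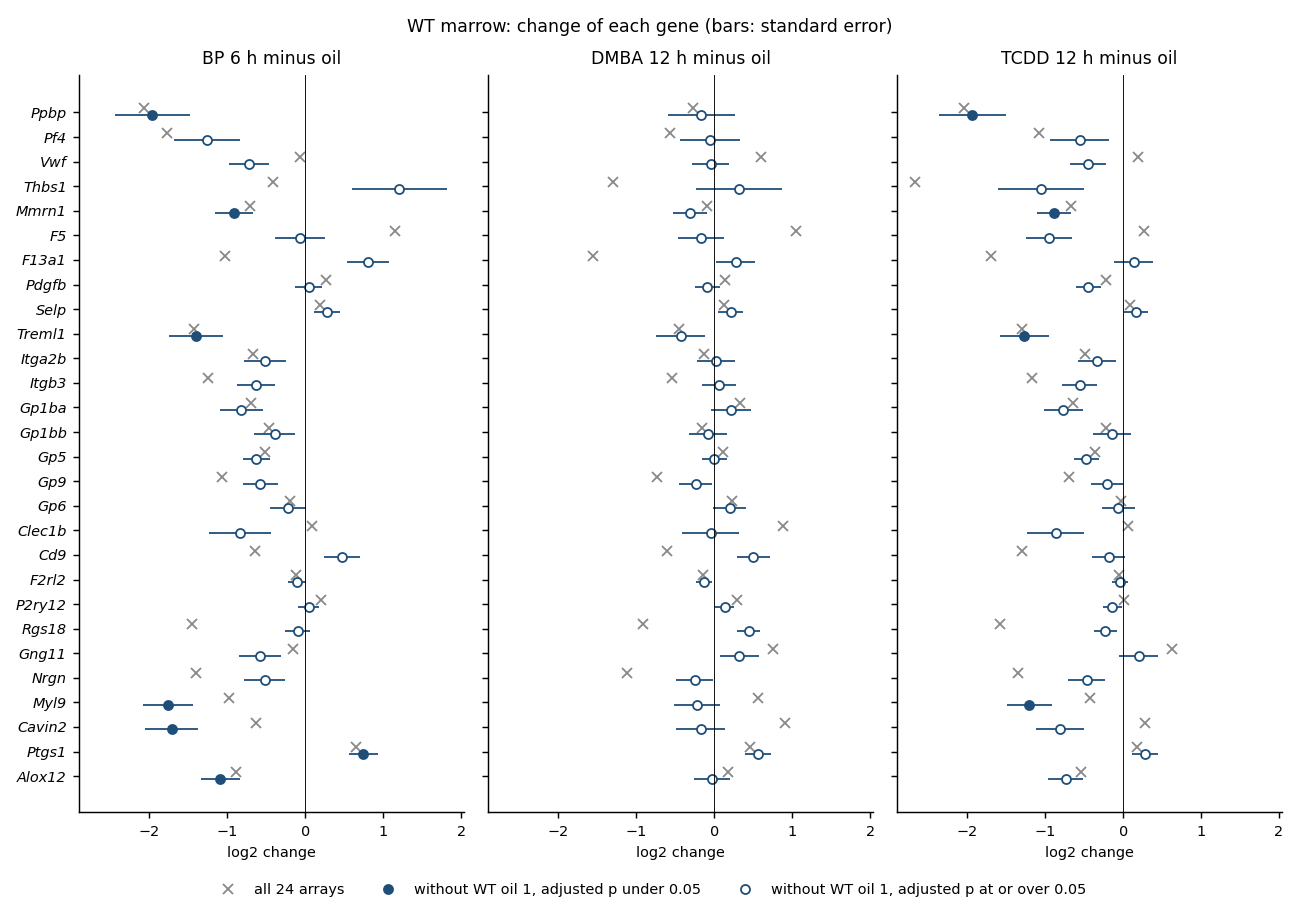
Log2 change (x) with its standard error of the 28 genes in WT marrow, for BP, DMBA and TCDD minus oil. Circles leave out WT oil replicate 1 and are filled where the adjusted p was under 0.05; crosses use all 24 arrays. Ppbp and Treml1 stood near -2 and -1.4 after BP and close to that after TCDD, and near 0 or slightly below after DMBA.

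The granule genes were split. Mmrn1, multimerin 1, an α-granule binding partner of coagulation factor V, read 0.05 and -0.39 in WT BP marrow, against 0.11, 0.57 and 0.92 in WT oil marrow. The groups did not overlap, and without WT oil replicate 1 its change was -0.92 ± 0.24 (adjusted p = 0.0443); with all arrays it was -0.70 and missed the test (adjusted p = 0.207). Pf4, platelet factor 4, an abundant α-granule chemokine, read -0.18 and -1.23 in WT BP marrow, against 2.10, 0.64 and 0.47 in WT oil marrow; it did not overlap but missed the test (without that oil array -1.26 ± 0.42, adjusted p = 0.105). Thbs1, encoding thrombospondin 1, which monocytes and stromal cells also make, read 1.83 and 2.26 in WT BP marrow, against 5.68, 0.12 and 1.55 in WT oil marrow. F13a1, coagulation factor XIII A, which macrophages also make, read 0.62 and 1.08 in WT BP marrow, against 5.53, -0.25 and 0.34 in WT oil marrow. Their direction turned with WT oil replicate 1: Thbs1 was at -0.41 with all arrays and 1.21 without it, and F13a1 at -1.03 and 0.80. Neither passed the test in either case. On the same WT BP arrays the median log ratio of 12 monocyte and macrophage genes was 0.53 and 0.59, against 0.43, 0.20 and 0.17 on the WT oil arrays, and its part in these values was not tested.

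Myl9 and Cavin2, like Mmrn1, were called after BP without WT oil replicate 1 and not with it. Myl9, a regulatory myosin light chain of platelets and smooth muscle, read -0.90 and -1.46 in WT BP marrow, against -1.78, 0.63 and 0.52 in WT oil marrow. Cavin2, a caveolar coat protein abundant in platelets and listed as Sdpr in the files, read -0.78 and -1.35 in WT BP marrow, against -2.60, 0.82 and 0.48 in WT oil marrow. The single low oil array made the groups overlap. Without it Myl9 fell by 1.76 ± 0.32 (adjusted p = 0.00741) and Cavin2 fell by 1.71 ± 0.34 (adjusted p = 0.0113), while with all arrays the changes were -0.97 (adjusted p = 0.371) and -0.63 (adjusted p = 0.674). Beside these, the smooth muscle list had a median log ratio of 0.06 and 0.05 on the WT BP arrays, against -0.21, 0.09 and -0.16 on the WT oil arrays, with 3 to 6 of its 6 genes well above background on these arrays. The endothelial list, which holds neither Cavin2 nor Vwf, had 0.07 and 0.03, against -1.95, 0.21 and 0.14. The part of either list in the result was not tested.

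The eicosanoid enzymes went opposite ways after BP. Alox12, the platelet 12-lipoxygenase, read -0.29 and -0.89 in WT BP marrow, against -0.10, 0.51 and 0.49 in WT oil marrow, and without WT oil replicate 1 it fell by 1.09 ± 0.25 (adjusted p = 0.0231). On the same arrays a dimmer Alox12 probe changed by -0.46. Ptgs1, cyclooxygenase 1, the source of platelet thromboxane precursors and also present in monocytes, read 0.75 and 0.53 in WT BP marrow, against 0.19, -0.00 and -0.21 in WT oil marrow. Both genes were without overlap, and without WT oil replicate 1 Ptgs1 rose by 0.75 ± 0.18 (adjusted p = 0.0297). With all arrays neither was called (adjusted p = 0.0942 for Ptgs1 and 0.112 for Alox12).

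None of the 9 adhesion receptors was called after BP. Their median change was -0.58 without WT oil replicate 1. Gp5, the V subunit of the von Willebrand factor receptor, came nearest, with -0.15 and -0.43 in WT BP marrow, against 0.02, 0.33 and 0.35 in WT oil marrow (-0.63 ± 0.18 without that oil array, adjusted p = 0.0608). Gp1ba, its ligand-binding subunit, changed by -0.82 ± 0.28 on the same arrays (adjusted p = 0.114). Itga2b, the αIIb integrin chain, and Itgb3, its β3 partner, were at -0.52 and -0.64. For Itgb3 a dimmer probe of the gene read 0.79, so its direction is uncertain. The agonist receptors and signalling genes, of which Rgs18 encodes a regulator of G-protein signalling, Gng11 a G-protein γ subunit and Nrgn a calmodulin-binding protein of platelets, had a median of -0.10, and none was called. No change after BP is given for F2rl2, the thrombin receptor cofactor PAR3, which was not well above background on either WT BP array.

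TCDD after 12 h gave lower Ppbp and Treml1 as well. Ppbp read -0.79, -0.53 and -0.04 in WT TCDD marrow, against 1.80, 1.65 and 1.31 in WT oil marrow, a change of -2.04 ± 0.40 (adjusted p = 0.0209). Treml1 read -0.16, -0.07 and 0.25 in WT TCDD marrow, against 1.34, 1.27 and 1.29 in WT oil marrow, a change of -1.29 ± 0.29 (adjusted p = 0.0320). Neither gene overlapped between the groups. The BP and TCDD comparisons share the oil arrays, so that their likeness is not independent.

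The 2 of 28 genes called after TCDD stood against 2.23% of all genes (1.91% lower). Without WT oil replicate 1 the count was 4 of 28, all lower, against 6.23% (3.97% lower), with Ppbp at -1.93 ± 0.43 (adjusted p = 0.0203) and Treml1 at -1.27 ± 0.32 (adjusted p = 0.0297). The added genes were Myl9, with -0.76, -0.40 and -0.73 in WT TCDD marrow, against -1.78, 0.63 and 0.52 in WT oil marrow (-1.20 ± 0.29, adjusted p = 0.0273), and Mmrn1, with 0.01, -0.07 and -0.37, against 0.11, 0.57 and 0.92 (-0.89 ± 0.22, adjusted p = 0.0300). The median change over the 28 genes was -0.46 with and without that oil array. With all arrays 9 genes lay lower on every TCDD array (10.6% of all genes) and 0 lay higher (6.77%).

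On TCDD replicates 1 and 2, the arrays with a raised Cy3 floor, the 28 log ratios spanned -0.92 to 0.35 and -0.57 to 0.50. With these 2 arrays and WT oil replicate 1 left out, an alternative chosen after seeing the data, the 1 remaining TCDD array was taken to vary like the other groups. It still gave -1.52 for Ppbp (adjusted p = 0.176) and -1.03 for Treml1 (adjusted p = 0.214), and 0 of 28 genes were called. With all WT oil arrays kept, leaving out any 1 of the 3 TCDD arrays also gave 0 calls. Over the 40 alternatives the change ran from -2.95 to -1.52 for Ppbp and from -2.20 to -0.82 for Treml1. Genes measured less firmly there included P2ry12, the ADP receptor, which was not well above background on any TCDD array. On TCDD replicate 1 that held for 11 genes, with P2ry12, Myl9 and Mmrn1 among them.

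After DMBA for 12 h none of the 28 genes was called. Ppbp read 1.62, 1.53 and 0.80 in WT DMBA marrow, against 1.80, 1.65 and 1.31 in WT oil marrow. The groups overlapped, with 1 DMBA array below every oil array. Treml1 read 0.89, 0.78 and 0.87, against 1.34, 1.27 and 1.29, without overlap but with a change of -0.43 that missed the test without WT oil replicate 1 (adjusted p = 0.786). By limma 0 of 28 genes were called with all arrays (0% of all genes) and 0 without that array (0.101%), and 5 and 3 genes had an unadjusted p under 0.05. The median changes were 0.01 and -0.04. WT oil replicate 2 lay on the slide of DMBA replicates 1 and 2, and within it the 28 differences had a median of 0.00 and ran from -0.43 to 0.67.

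**Figure D3:**
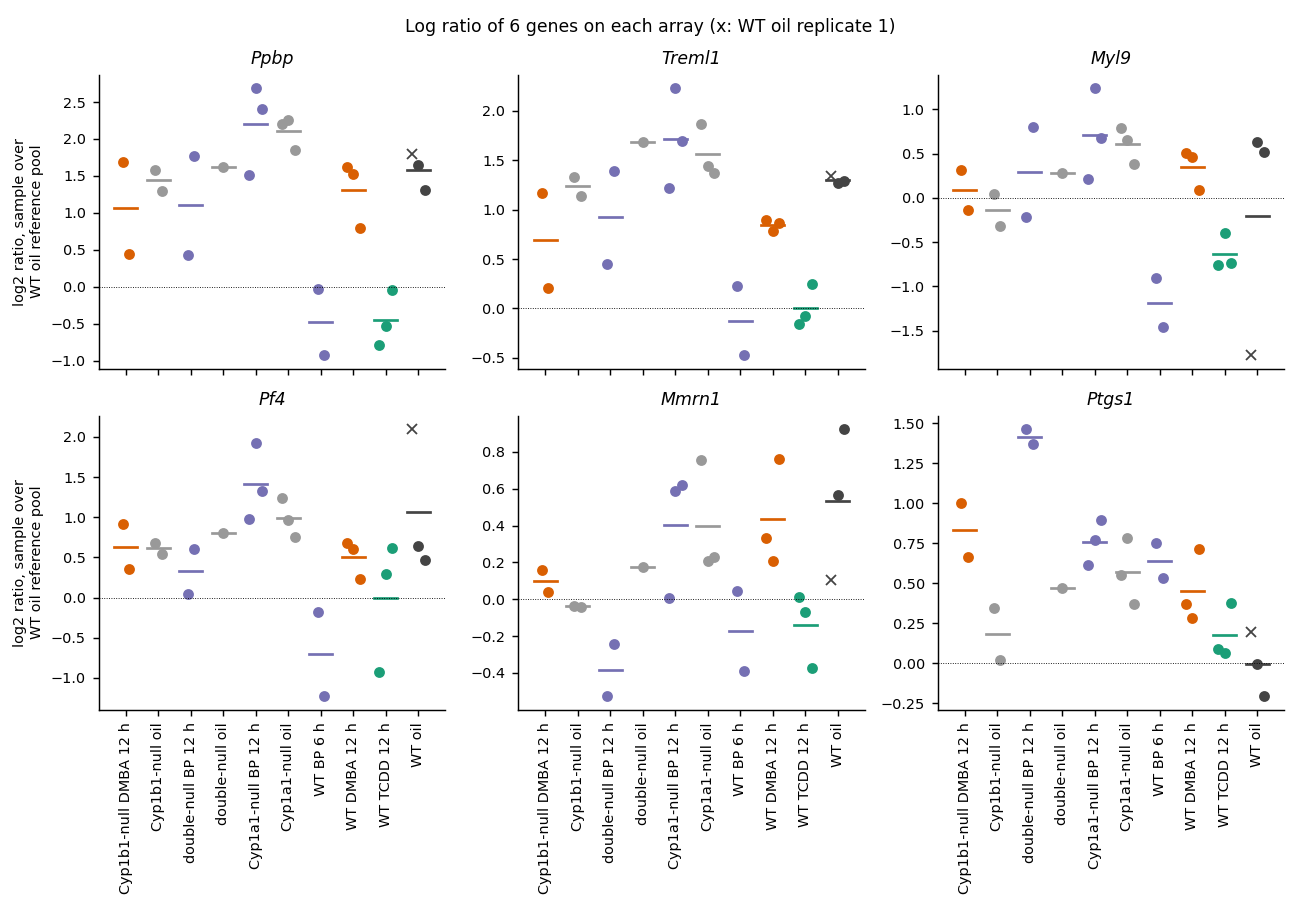
Log2 ratio over the WT oil pool (y) on every array of the 10 groups for Ppbp, Treml1, Myl9, Pf4, Mmrn1 and Ptgs1; bars are group means over all arrays and the x marks WT oil replicate 1. Ppbp stood below 0 on all 5 WT BP and TCDD arrays and above 0 on all 19 other arrays.

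Set directly against TCDD, both after 12 h in WT mice, DMBA marrow had the higher value for 26 of 28 genes, with a median difference of 0.49. Every DMBA array exceeded every TCDD array for 17 of the 28, against 17.4% of all genes. With all arrays 0 were called (0.665% of all genes, 6 members at an unadjusted p under 0.05). When WT oil replicate 1, part of this contrast solely by the pooled variance, was left out, 6 were called and all were higher after DMBA, against 6.43% of all genes (4.54% higher). Ppbp was at 1.77 ± 0.39 (adjusted p = 0.0116) and Gp1ba at 0.98 ± 0.23 (adjusted p = 0.0154), with Gp1ba log ratios of 1.10, 1.11 and 0.78 after DMBA, against -0.07, -0.02 and 0.13 after TCDD. Rgs18 read 0.09, 0.12 and -0.09 after DMBA, against -0.75, -0.57 and -0.57 after TCDD (0.67 ± 0.13, adjusted p = 0.00561). Cd9, a tetraspanin common on platelets and other marrow cells, read 0.24, 0.11 and -0.05, against -0.72, -0.44 and -0.60 (0.69 ± 0.19, adjusted p = 0.0355). Myl9 (0.98 ± 0.26, adjusted p = 0.0332) and Alox12 (0.71 ± 0.20, adjusted p = 0.0456) completed the set. The groups shared no slide, and TCDD replicates 1 and 2 had the raised Cy3 floor, so floor, slide and agent cannot be told apart. Gp1ba, Myl9 and Alox12 were not well above background on TCDD replicate 1. With TCDD replicates 1 and 2 and WT oil replicate 1 left out, which leaves 1 TCDD array, 0 were called, and the differences were 1.36 for Ppbp and 0.87 for Gp1ba.

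Slides limited the WT contrasts with oil too. The WT BP and TCDD arrays shared no slide with any WT oil array, so slide and treatment cannot be told apart there. Since WT oil and DMBA spanned several slides, a fit with slide as a random block could be made, and its estimated within-slide correlation was 0.823, or 0.569 without WT oil replicate 1. In it no call held in the WT treatment or oil genotype comparisons, with or without that array. With all arrays Ppbp was at -1.93 ± 1.13 after BP and -1.90 ± 1.12 after TCDD (adjusted p = 1.000 for both). Leaving out WT oil replicate 1, it was at -1.84 ± 0.75 (adjusted p = 0.538) and -1.81 ± 0.72 (adjusted p = 0.366).

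In null mice given oil, neither Ppbp nor Treml1 was called lower than in WT mice given oil. Cyp1a1-null oil marrow had the higher values: Ppbp read 2.21, 2.26 and 1.85, against 1.80, 1.65 and 1.31 in WT oil marrow, and 11 of 28 genes were higher on every Cyp1a1-null array (8.71% of all genes), 2 lower (10.1%). The median change was 0.33 with all arrays and 0.26 without WT oil replicate 1. Gp5 was the one gene called with all arrays (3.47% of all genes, 1.01% higher). It read 0.98, 0.70 and 0.79 in Cyp1a1-null oil marrow, against 0.02, 0.33 and 0.35 in WT oil marrow (0.59 ± 0.16, adjusted p = 0.0469), and was not called without WT oil replicate 1 (0.49 ± 0.16, adjusted p = 0.0776). Over the 40 alternatives its call held in 10 and was lost in 30.

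Without that array 2 of 28 genes were called, both higher (7.58% of all genes, 3.24% higher). Itga2b read 0.98, 1.15 and 1.02 in Cyp1a1-null oil marrow, against 0.61, -0.01 and 0.29 in WT oil marrow (0.91 ± 0.25, adjusted p = 0.0337). Ptgs1 read 0.55, 0.78 and 0.37, against 0.19, -0.00 and -0.21 (0.67 ± 0.16, adjusted p = 0.0227). Over 5 alternatives to this fit, with all arrays among them, the Itga2b call was lost in 5 and the Ptgs1 call in 3. All 3 Cyp1a1-null oil arrays lay on 1 slide and were read with another version of the scanner software than the WT oil arrays, so genotype, slide and software cannot be told apart.

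**Figure D4:**
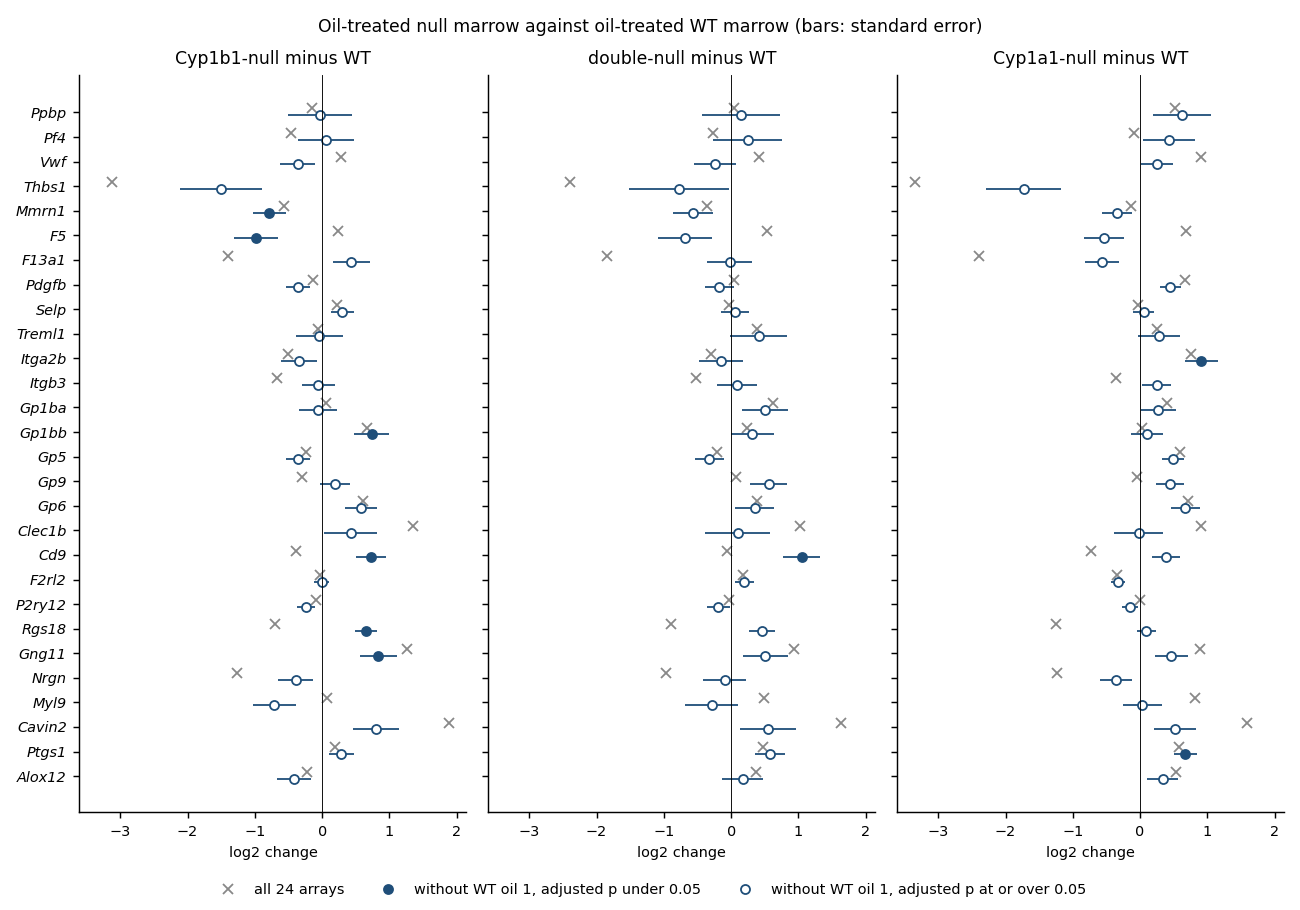
Log2 change (x) with its standard error of the 28 genes in oil-treated Cyp1b1-null, Cyp1b1/Cyp1a1-null and Cyp1a1-null marrow minus oil-treated WT marrow. Circles leave out WT oil replicate 1 and are filled where the adjusted p was under 0.05; crosses use all 24 arrays. Leaving out that array, Ppbp and Treml1 stood near 0 in Cyp1b1-null marrow and above 0 in the other genotypes, and Thbs1 stood below 0 in all 3.

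Cyp1b1-null oil marrow gave calls in both directions. These arrays shared no slide with any WT oil array, so slide and genotype cannot be told apart. The SD over the log ratios of all genes was 0.54 and 0.54 on them, against 1.27, 0.23 and 0.40 on the WT oil arrays. With all arrays Gng11 alone was called, against 15.6% of all genes (8.67% higher). It read 0.52 and 0.48 in Cyp1b1-null oil marrow, against -1.61, 0.06 and -0.73 in WT oil marrow (1.26 ± 0.34, adjusted p = 0.0232). Without WT oil replicate 1 the count was 6 of 28, 4 higher and 2 lower, against 29.9% (17.5% higher and 12.4% lower), a share below the background. Ppbp and Treml1 changed by -0.04 each in that fit.

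The 4 higher genes came from adhesion and signalling. Gng11 was at 0.84 ± 0.27 (adjusted p = 0.0286). Rgs18 read 0.28 and 0.21 in Cyp1b1-null oil marrow, against 3.65, -0.18 and -0.62 in WT oil marrow (0.65 ± 0.16 without replicate 1, adjusted p = 0.00725). A slightly dimmer Rgs18 probe, well above background on all 24 arrays, changed by only 0.20, so the size of this change is uncertain. Cd9 read 0.56 and 0.09, against 2.94, -0.04 and -0.77 (0.73 ± 0.23, adjusted p = 0.0245), and Gp1bb, the β chain of the von Willebrand factor receptor, read 1.10 and 1.03, against 0.55, 0.81 and -0.15 (0.73 ± 0.27, adjusted p = 0.0457). With all arrays Rgs18 and Cd9 changed sign, to -0.70 and -0.39.

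The 2 lower genes were granule proteins. Mmrn1 read -0.04 and -0.04 in Cyp1b1-null oil marrow, against 0.11, 0.57 and 0.92 in WT oil marrow (-0.78 ± 0.24, adjusted p = 0.0227), without overlap. F5, coagulation factor V, read -0.31 and -0.70, against -3.18, -0.10 and 1.06 (-0.99 ± 0.32, adjusted p = 0.0304), and with all arrays its change was 0.23. Beside these, the monocyte and macrophage list had medians of 0.68 and 0.60 on the Cyp1b1-null oil arrays, against 0.43, 0.20 and 0.17 on the WT oil arrays, and the erythroid list -0.64 and -0.41, against 2.94, -0.21 and 0.27. Their part in the result was not tested.

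The single Cyp1b1/Cyp1a1-null oil array was taken to vary like the other groups. It shared no slide with any WT oil array, so slide and genotype cannot be told apart. With all arrays 0 of 28 genes were called by limma (1.51% of all genes; 2 members had an unadjusted p under 0.05). Leaving out WT oil replicate 1, Cd9 was called, against 6.01% (3.03% higher). Cd9 read 0.64 there, against 2.94, -0.04 and -0.77 in WT oil marrow (1.05 ± 0.28, adjusted p = 0.0362), and its change was -0.068 with all arrays. Ppbp read 1.62 and Treml1 1.68 on that array, against 1.80, 1.65 and 1.31 and 1.34, 1.27 and 1.29 on the WT oil arrays.

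BP after 12 h did not give lower Ppbp or Treml1 in Cyp1a1-null marrow, where the comparison with WT also differs in time. Ppbp read 1.51, 2.69 and 2.41 in Cyp1a1-null BP marrow, against 2.21, 2.26 and 1.85 in Cyp1a1-null oil marrow. Treml1 read 1.22, 2.23 and 1.70, against 1.86, 1.44 and 1.37. Of 28 genes 23 had a change above 0, the median was 0.19, and 0 were called by limma with or without WT oil replicate 1 (0.0336% and 0.156% of all genes, 4 and 6 members at an unadjusted p under 0.05). Within the 1 slide that held both groups the median difference was 0.11, with 22 of 28 above 0.

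In Cyp1b1/Cyp1a1-null marrow the BP arrays lay far apart from each other for Ppbp and Treml1. Ppbp read 0.43 and 1.77 after BP, against 1.62 after oil, and Treml1 0.45 and 1.39, against 1.68. By limma 0 of 28 genes were called (0.261% of all genes with all arrays and 0.513% without WT oil replicate 1, 2 members at an unadjusted p under 0.05 in each), with a median change of -0.15. Ptgs1 was nearest, with 1.46 and 1.37 after BP, against 0.47 after oil (0.95 ± 0.22 without WT oil replicate 1, adjusted p = 0.0703). All 3 arrays lay on 1 slide, and with slide as a random block Ptgs1 was called (adjusted p = 0.0128).

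The response to BP after 12 h was also compared between the null genotypes as a difference of differences. Over the 28 genes its median was -0.41, Cyp1b1/Cyp1a1-null minus Cyp1a1-null, and 0 were called by limma (0.135% of all genes with all arrays, 0.206% without WT oil replicate 1, with 2 and 3 members at an unadjusted p under 0.05). Set directly side by side, Cyp1b1/Cyp1a1-null BP marrow had 11 genes lower on every array than Cyp1a1-null BP marrow (15.2% of all genes) and 5 higher (14.1%), with a median difference of -0.47. With all arrays 0 were called (0.135%, 10 members at an unadjusted p under 0.05).

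Leaving out WT oil replicate 1, that direct comparison called 3 of 28 genes, against 3.63% of all genes (1.64% higher and 1.99% lower). Gp5 read 0.02 and 0.19 in Cyp1b1/Cyp1a1-null BP marrow, against 0.39, 1.07 and 1.01 in Cyp1a1-null BP marrow (-0.72 ± 0.16, adjusted p = 0.0219). Cd9 read 1.01 and 0.65, against -0.02, 0.01 and -0.10 (0.86 ± 0.21, adjusted p = 0.0303). Ptgs1 read 1.46 and 1.37, against 0.62, 0.77 and 0.89 (0.66 ± 0.16, adjusted p = 0.0371). The 2 genotypes shared no slide, so slide and genotype cannot be told apart.

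DMBA in Cyp1b1-null marrow left Ppbp at 1.69 and 0.45, against 1.58 and 1.30 with oil, and Treml1 at 1.17 and 0.21, against 1.33 and 1.14. The second DMBA array had a span of only -0.17 to 0.67 over the 28 genes. With all arrays 0 were called by limma (0.0252% of all genes, 3 members at an unadjusted p under 0.05). Ptgs1 was called when WT oil replicate 1 was left out, against 7.74% (3.44% higher), with 1.00 and 0.67 after DMBA, against 0.34 and 0.02 after oil (0.65 ± 0.18, adjusted p = 0.0367). The 2 groups shared no slide, so slide and treatment cannot be told apart.

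Cyp1b1-null DMBA marrow was finally set against WT DMBA marrow. There 11 of 28 genes were lower on every Cyp1b1-null array (18.2% of all genes) and 2 higher (23.9%), with a median difference of -0.18. The Cyp1b1-null DMBA arrays had the raised Cy3 floor described above and shared no slide with the WT DMBA arrays. Floor, slide and genotype thus cannot be told apart. By limma 0 were called, with all arrays (0.109% of all genes) or without WT oil replicate 1 (1.65%), and 2 and 3 members had an unadjusted p under 0.05. The difference of the DMBA responses, Cyp1b1-null minus WT, had 0 calls as well (0.00841% and 3.08% of all genes, 3 and 2 members at an unadjusted p under 0.05).

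Beyond the 28, 47 further megakaryocyte and platelet genes were tested, a list that includes transcription factors and broadly expressed signalling genes. After BP in WT marrow 0 rose and 2 fell, against 0.837% of all genes called and 0.618% called lower. These were Itga6, the laminin-binding α6 integrin chain (-1.05 ± 0.22, adjusted p = 0.0378), and Tuba8, an α-tubulin (-0.67 ± 0.15, adjusted p = 0.0423). The list median was -0.21 with all arrays and -0.02 without WT oil replicate 1, where 3.9% of all genes were called. There Itga6 (-0.76, adjusted p = 0.0190) and Tuba8 (-0.57, adjusted p = 0.0397) stayed below the threshold.

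After TCDD 1 of the 47 fell with all arrays, Itga6 (-1.25 ± 0.20, adjusted p = 0.00970), against 2.23% of all genes called, and 4 fell without WT oil replicate 1, against 6.23%. The others were Nfe2, a transcription factor needed for platelet release (-0.70 ± 0.14, adjusted p = 0.0110), Gucy1b1, a subunit of the nitric oxide receptor (-0.76, adjusted p = 0.0464), and Tgfb1 (-0.46, adjusted p = 0.0473). Against TCDD, without WT oil replicate 1 and with 6.43% of all genes called, Itga6 (0.86) and Nfe2 (0.63) were higher after DMBA, and the erythroid and megakaryocytic factors Gfi1b (-1.14) and Gata1 (-0.48) were lower. In Cyp1b1-null oil marrow 4 of the 47 were higher and 3 lower with all arrays, against 15.6% of all genes called. Without that array 9 were higher and 7 lower, against 29.9%, so both counts lay near the background. The transcription regulators called then went both ways. Fli1, the ETS factor named above, was at 1.19 ± 0.18 (adjusted p = 0.000599) and Runx1 at 2.09 ± 0.44. Zfpm1 (-0.97, adjusted p = 0.0183), Gfi1b (-0.63, adjusted p = 0.0185) and Nfe2 (-0.41, adjusted p = 0.0448) were lower.

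The authors' deposited table gave, for BP minus oil in WT mice, log2 changes of -1.85 for Ppbp and -1.37 for Treml1, and for TCDD -2.11 and -1.40. For DMBA it gave 0.18 for Ppbp, where the array values above leaned lower, and -0.18 for Treml1. For Cyp1a1-null minus WT oil marrow the authors' deposited table gave 1.02 for Ppbp. Over 23775 genes the changes of the authors' deposited table and those computed here correlated across genes at 0.19 to 0.86 in 9 comparisons. For the comparisons quoted above the correlation was low, at 0.33 for BP, 0.19 for DMBA, 0.38 for TCDD and 0.43 for Cyp1a1-null oil.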

How the data were processed

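Bone marrow RNA was hybridised to 24 Agilent 2-colour arrays. The deposited files hold mean and background intensities per spot and the scanner's processed signals, written by Feature Extraction 9.1.3.1 (20 arrays) or 10.7.3.1 (4 arrays), per the file headers. The authors' deposited table of comparisons holds log2 changes, and limma is named in the submitters' processing notes; the settings are not given in the sources used here. It was matched by feature number.

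Here the mean and background intensities were corrected with normexp (offset 50) and loess within arrays in limma 3.58.1 (R 4.3.3), without control spots (41174 probes kept). The log ratio is log2 of Cy3 over Cy5. A gene was represented by its brightest probe and tested where Cy3 was well above background on at least 3 arrays. limma fitted group means to all 24 arrays, with Benjamini-Hochberg adjustment over all genes and calls at an adjusted p under 0.05. The number of arrays limits the precision. The 29 genes and all lists were chosen with earlier results of these data known. Members called in any comparison are given by array. Of the other megakaryocyte list, up to 6 called genes with the smallest adjusted p per comparison could be named. For Cyp1b1-null oil marrow the called transcription regulators were named instead. The fit was tested on simulated data. Alternatives covered background correction, processed signals, Cy3 alone, filters, probe averaging, slide and replicate blocks, the prior, the groups fitted and each array left out. Sequences are from RefSeq tables (GRCm38.p6); motifs were searched with Python 3.11.15.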

Additional observations from a re-analysis of the deposited data

How the results depend on the processing

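With all 24 arrays the counts of called genes among the 28 were 2 after BP and 2 after TCDD in WT marrow, 1 in Cyp1b1-null oil and 1 in Cyp1a1-null oil marrow, and 0 in the other 10 comparisons. Counts that moved are given here by setting. Without background subtraction they were 0 after BP, 2 in Cyp1b1-null oil, 0 in Cyp1a1-null oil and 3 for DMBA against TCDD. With the scanner's processed signals they were 0 after BP, 5 after TCDD and 0 in Cyp1a1-null oil; leaving out WT oil replicate 1 as well gave 0, 7 and 0, with 4 in Cyp1b1-null oil and 10 for DMBA against TCDD. With Cy3 alone they were 0 after BP, 4 after TCDD, 3 in Cyp1b1-null oil, 2 in Cyp1a1-null oil, 9 for DMBA against TCDD and 1 for Cyp1b1-null DMBA against WT DMBA; without WT oil replicate 1 these became 1, 11, 4, 2, 11 and 1. Cy3 alone shifted the median of all genes by up to 0.541 (DMBA response), so changes there are relative to that shift. Without a detection filter the counts were 1 after BP and 2 in Cyp1a1-null oil; with detection on 12 arrays they were 2 in Cyp1b1-null oil and 0 in Cyp1a1-null oil; with the mean of a gene's probes they were 2 and 5. Slide as a random block, with or without WT oil replicate 1, gave 0 after BP, 0 after TCDD, 0 in both oil comparisons and 1 for BP in Cyp1b1/Cyp1a1-null marrow, which slide as a fixed term also gave (1). A trended robust prior gave 0 after BP, 0 after TCDD and 0 in Cyp1a1-null oil. Fitting only the groups compared gave 0 in those 3 and in Cyp1b1-null oil, and 8 for DMBA in Cyp1b1-null marrow, 11 for DMBA against TCDD and 2 for Cyp1b1-null DMBA against WT DMBA. With WT TCDD replicates 1 and 2 and WT oil replicate 1 left out, chosen after seeing the data, the counts were 6 after BP, 0 after TCDD, 5 in Cyp1b1-null oil, 1 for DMBA in Cyp1b1-null marrow and 3 for BP in Cyp1b1/Cyp1a1-null against Cyp1a1-null marrow. The cause of these moves was not tested.

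Leaving out 1 array at a time, the counts ranged from 0 to 7 after BP, 0 to 1 after DMBA and 0 to 8 after TCDD in WT marrow, 0 to 6 in Cyp1b1-null oil, 0 to 11 in Cyp1a1-null oil and 0 to 1 in Cyp1b1/Cyp1a1-null oil. The highest counts after TCDD and in Cyp1a1-null oil came without WT oil replicate 2. The other ranges were 0 to 1 for DMBA in Cyp1b1-null, 0 to 2 for BP in Cyp1a1-null and 0 to 0 for BP in Cyp1b1/Cyp1a1-null marrow, 0 to 6 for DMBA against TCDD, 0 to 0 for Cyp1b1-null DMBA against WT DMBA, 0 to 3 for BP between the null genotypes, 0 to 1 for the difference of DMBA responses and 0 to 0 for that of BP responses.

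Replicate numbers recur across groups. Over 82 same-numbered pairs the correlations of deviations ran from -0.25 to 0.33 (median 0.02), with 20 pairs over 0.1. Differently numbered pairs were not set beside them, so whether the numbers pair the samples is not settled. With the replicate number as a block the counts were 0 after BP and 2 in Cyp1b1-null oil, and no other count moved by over 1.5 times.

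Changes called only without WT oil replicate 1 reversed with all arrays for Cd9 (-0.39), F5 (0.23) and Rgs18 (-0.70) in Cyp1b1-null oil and Cd9 (-0.068) in Cyp1b1/Cyp1a1-null oil marrow. Ptgs1 after DMBA in Cyp1b1-null marrow reversed with Cy3 alone and no WT oil replicate 1 (-0.083). Raised Cy3 floors limit the WT TCDD and Cyp1b1-null DMBA values.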

Other observations

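Probes of the same gene did not always move together. For Itgb3, without WT oil replicate 1, a dimmer probe changed by 0.79 after BP, 1.13 after TCDD and 2.63 in Cyp1b1-null oil marrow relative to WT oil marrow, where the brightest probe changed by -0.64, -0.56 and -0.06. Both probes were well above background on all 24 arrays. The 3 probes of Thbs1 changed by 1.21, 1.08 and 0.95 after BP and by -1.06, -0.34 and -0.12 after TCDD. The probes of Rgs18 changed by 0.65 and 0.20 in Cyp1b1-null oil marrow, and by 0.67 and 0.59 for DMBA against TCDD. The brightest and next brightest probes of Alox12 changed by -1.09 and -0.46 after BP, and by 0.71 and 0.72 for DMBA against TCDD.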
